A study of Drosophila melanogaster with 6 samples.

Results

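The Jonah genes and the trypsin genes with Greek-letter names encode serine proteases of the *Drosophila* midgut. Their products are secreted into the gut lumen by enterocytes, the absorptive cells of the midgut, and cut dietary protein into smaller peptides. Trypsins cut after lysine and arginine, and both groups belong to the chymotrypsin-like family of proteases, which are made as inactive precursors and activated by a cleavage. The salivary gland (SG) of the larva is a different secretory tissue, which makes the glue proteins that fix the pupa to a surface. The members described here were chosen by a rule on gene name, with earlier results of these data known. They are the protein-coding genes called Jon followed by a number or a Greek letter followed by Try. There were 27 of them, 16 Jonah genes and 11 trypsin genes, among 13930 protein-coding genes and 23932 entries of the table.

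RNA-seq was performed on SGs dissected from wandering L3 larvae of 2 genotypes. The control was the strain *w1118* (replicates 1 and 4, n = 2 libraries), and the mutant was *de2f1b* (replicates 1, 2, 3 and 4, n = 4 libraries), which lacks dE2F1b, an alternatively spliced form of the transcription factor dE2F1, in every tissue and not only in the SG. The allelic combination of the larvae used for RNA-seq is not given in the sources used here. The labels call the libraries biological replicates without saying how many animals or dissections each one came from, so the p-values below measure the spread between these libraries.

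The value used throughout is the normalized count, the number of reads on a gene divided by a size factor of the library. The libraries held between 56495956 and 94907006 reads on genes, and 1 read was worth a normalized count of 0.782 to 1.37. Where no read of a gene was seen, its level was below 2.35 to 4.11, the value of 3 reads, a bound for counting error alone. The 8 SG marker genes, the glue genes among them, were detected in all 6 libraries, with a summed normalized count between 7813350 and 19379700. *E2f1* (FBgn0011766), the gene from which dE2F1b is spliced, had a normalized count of 12544 and 18666 in *w1118* and of 12895, 10267, 9304 and 7190 in *de2f1b* replicates 1 to 4 (limma, adjusted p = 0.230). Counts per gene do not separate its spliced forms, so they do not check the genotype. In bulk RNA, fewer cells of a type and less RNA per cell cannot be told apart.

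The libraries of *de2f1b* replicates 1 and 3 stood apart from the other libraries in the protease genes. The 27 genes summed to a normalized count of 177 and 32.1 in *w1118* replicates 1 and 4. In *de2f1b* the sums were 568241 in replicate 1, 126 in replicate 2, 62959 in replicate 3 and 335 in replicate 4. Replicate 2 of the mutant thus lay between the 2 controls. As a share of all reads on genes, the proteases made up 0.754% of *de2f1b* replicate 1 (95% Wilson interval 0.752 to 0.756) and 0.119% of replicate 3 (0.118 to 0.120). In the other 4 libraries the reads on all 27 genes together numbered 212 and 35 in *w1118* and 92 and 429 in *de2f1b* replicates 2 and 4. The limma estimates and the DESeq2 calls of the members are therefore also given without both libraries, and the other values are given library by library.

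Both families took part, but not in equal proportion. The 16 Jonah genes summed to 164 and 29.3 in *w1118*, and to 510677, 125, 61496 and 207 in *de2f1b* replicates 1 to 4. The 11 trypsin genes summed to 12.5 and 2.75 in *w1118*, and to 57564, 1.37, 1463 and 128 in *de2f1b* replicates 1 to 4. The trypsin reads of *w1118* replicate 4 and *de2f1b* replicate 2 were at or below 3 reads, so no level can be read from them. Jonah genes took 89.9% of the protease reads of *de2f1b* replicate 1 (Wilson interval 89.8 to 90.0), 97.7% in replicate 3 (97.6 to 97.8) and 61.8% in replicate 4 (57.1 to 66.2). The trypsin part was thus larger in replicate 4, where all proteases summed to 335, than in the 2 libraries rich in them, and the 3 shares differed beyond counting error.

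**Figure D1:**
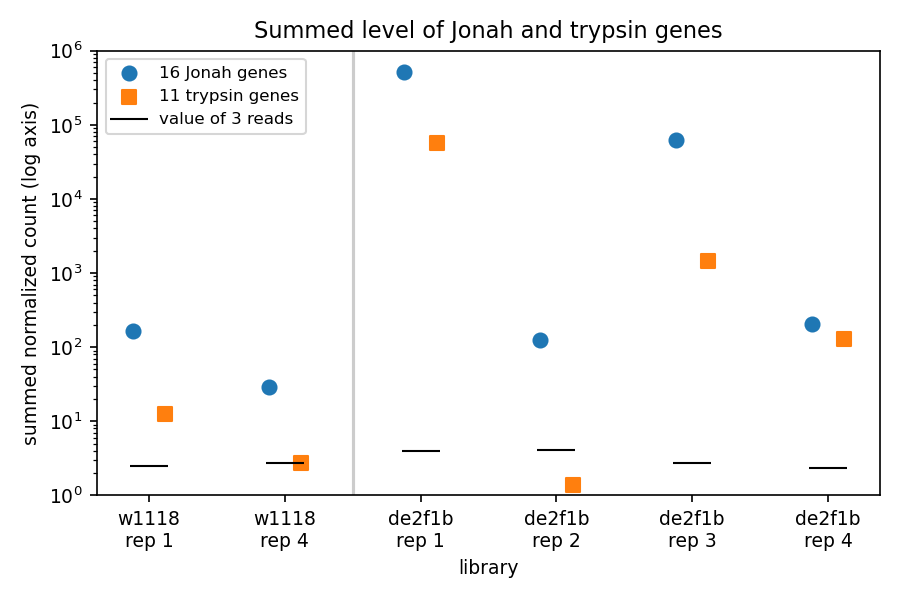
Summed normalized count (log axis) of the 16 Jonah genes (circles) and the 11 trypsin genes (squares) in each library, with the value of 3 reads as a line. Both sums peak in *de2f1b* replicate 1 (510677 and 57564), followed by replicate 3, while *de2f1b* replicate 2 lies at 125 and 1.37, within the range of the controls for the Jonah genes and below the line for the trypsin genes.

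Among the Jonah genes, 4 carried nearly all of the signal, a pair in the *Jon65A* group on chromosome 3L and a pair in the *Jon25B* group on chromosome 2L. *Jon65Aiv* (3L, 6039155 to 6040135, BDGP6.54), a Jonah protease, had a normalized count of 11.7 and 3.67 in *w1118*, and of 292308, 1.37, 34210 and 100.1 in *de2f1b* replicates 1 to 4. It alone took 51.4% of the protease reads of replicate 1 and 54.3% of those of replicate 3, and it was the 30th most abundant gene of replicate 1. *Jon65Aiii* (3L, 6050757 to 6051690) had a normalized count of 15.8 and 9.17 in *w1118*, and of 130517, 4.11, 18192 and 31.3 in the mutant. In both genes replicates 1, 3 and 4 of the mutant were above the controls and replicate 2 was below them, so the groups overlapped. Over the reads of the pooled controls, *Jon65Aiv* was 37191-fold higher in replicate 1 (counting interval 23532 to 62754), 4353-fold higher in replicate 3 (2754 to 7345) and 12.7-fold higher in replicate 4 (7.74 to 22.2).

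The *Jon25B* pair had the same order of libraries except at the lowest values. *Jon25Bii* (2L, 4952243 to 4953136) had a normalized count of 3.34 and 0 in *w1118*, and of 48686, 0, 3082 and 42.2 in *de2f1b* replicates 1 to 4. *Jon25Bi* (2L, 4954279 to 4955144) had 0.834 and 1.83 in *w1118*, and 38921, 0, 5971 and 21.9 in the mutant. Neither gene had a read in *de2f1b* replicate 2, and both had 4 reads or fewer in the controls. *Jon65Ai* (3L, 6053493 to 6054443) was the only other Jonah gene to reach a normalized count of 100, with 4.17 and 0 in *w1118* and 119, 2.74, 20.8 and 0.782 in the mutant. Its replicate 4 value lay below that of *w1118* replicate 1, unlike that of the 4 abundant Jonah genes.

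The trypsin genes lie in 1 cluster on chromosome 2R, and 5 of them passed a normalized count of 100. *betaTry* (2R, 11346325 to 11347395) had no read in either control, and its normalized count was 27845, 0, 463 and 48.5 in *de2f1b* replicates 1 to 4. Against 3 reads in *w1118* replicate 4, the higher of the floors of both control libraries, it was at least 10126-fold higher in replicate 1, at least 168-fold higher in replicate 3 and at least 17.6-fold higher in replicate 4. *epsilonTry* (2R, 11345237 to 11346066) had 5.84 and 2.75 in *w1118*, and 17525, 0, 298 and 53.2 in the mutant. These were the only 2 trypsin genes above a normalized count of 10 in replicate 4, and they made up most of its trypsin reads.

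*alphaTry* (2R, 11344260 to 11345119) had a normalized count of 3.34 and 0 in *w1118*, and of 7376, 0, 404 and 8.60 in *de2f1b* replicates 1 to 4. *thetaTry* (2R, 11341714 to 11342760) had 1.67 and 0 in *w1118*, and 2702, 0, 25.3 and 3.91 in the mutant. *deltaTry* (2R, 11355319 to 11356128) had 1.67 and 0 in *w1118*, and 1955, 0, 258 and 8.60 in the mutant. All 5 trypsins were thus highest in replicate 1 and without a read in replicate 2. The exons of *deltaTry* overlap those of *CG13202* on the other strand over 1.9% of their length, and it is not stated whether strand was used in the counting.

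The remaining 17 members stayed below a normalized count of 100 in every library, and several of them did not follow the pattern of the abundant genes. *Jon25Biii* (2L, 4949941 to 4950767), the neighbour of the *Jon25B* pair, had 36.7 and 0 in *w1118*, and 36.0, 13.7, 5.43 and 0 in *de2f1b* replicates 1 to 4. *Jon66Ci* (3L, 8391540 to 8392377) had 17.5 and 3.67 in *w1118*, and 0, 20.5, 0.904 and 0 in the mutant, so that the library richest in the other proteases held no read of it. *Jon74E* (3L, 17548077 to 17549127) had 13.3 and 7.33 in *w1118*, and 5.34, 5.48, 6.33 and 10.2 in the mutant, from between 4 and 16 reads in each library, so that the groups overlapped. *iotaTry* (2R, 11356720 to 11357537) had no read in the controls, and 9.34, 1.37, 6.33 and 5.47 in the mutant. *iotaTry* was the only member in which every mutant library lay above both controls, a pattern met by 17.4% of the genes that passed the filter. In replicate 2 it rests on 1 read, below the value of 3 reads. The gene reached 10 in no library and was not tested with the others. In the limma fit with no filter its log2 fold change was 2.55 (SE 0.83, unadjusted p = 0.0184, adjusted p = 0.226), and it was the only member with an unadjusted p under 0.05 there. Over the 17753 genes of that fit, 1491 were higher at an unadjusted p under 0.05.

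*Jon99Cii*, *Jon99Ciii* and *Jon99Fi*, all on chromosome 3R, peaked at 37.3, 32.0 and 28.8, the last in *de2f1b* replicate 2. *etaTry*, *kappaTry* and *gammaTry* had no read in the controls and reached 68.0, 49.4 and 32.0 in *de2f1b* replicate 1. *Jon65Aii* had reads in that library only, at 10.7. *Jon44E*, *Jon66Cii*, *Jon99Ci*, *Jon99Fii* and *lambdaTry* stayed below 10 in every library, and *zetaTry* had no read in any. Of the 27 genes, 18 had their highest value in *de2f1b* replicate 1, 5 in *de2f1b* replicate 2 and 3 in *w1118* replicate 1. By family, 10 of 11 trypsin genes and 8 of 16 Jonah genes peaked in *de2f1b* replicate 1. The families also differed in the controls, where 15 of 16 Jonah genes and 4 of 11 trypsin genes had at least 1 read. Members of the same cluster can be close copies, and how reads that fit several copies were counted is not stated, so low values beside an abundant neighbour, such as *gammaTry*, *etaTry* and *Jon65Aii*, are uncertain.

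**Figure D2:**
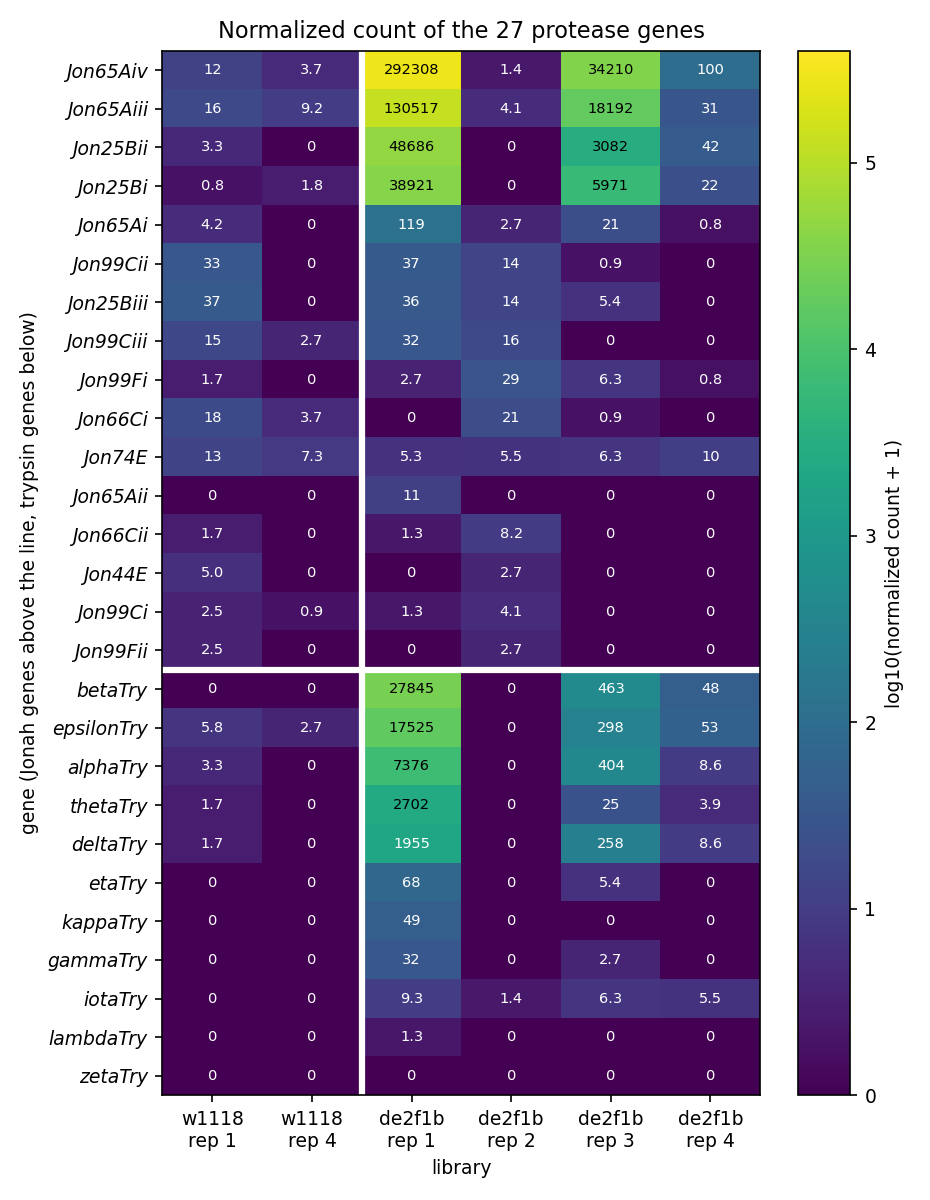
Normalized count of each of the 27 genes in each of the 6 libraries, with the value written in the cell and its colour on a log10 scale. Rows are genes (Jonah genes above the line, trypsin genes below), columns are libraries. *Jon65Aiv* and *Jon65Aiii* in *de2f1b* replicate 1 hold the highest values, 292308 and 130517, and the column of *de2f1b* replicate 2 resembles those of the controls, with its highest value, 28.8, in *Jon99Fi*.

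The comparison of the genotypes asked which genes differ in SGs that lack dE2F1b. It was made with limma on log2(normalized count + 1) over the 11099 genes that reached 10 in 2 or more libraries, and genes with a Benjamini-Hochberg adjusted p under 0.05 were called. Of the 27 members 15 passed this filter, 10 Jonah genes and 5 trypsin genes. Of the other 12, 5 reached a normalized count of 10 in 1 library only and 7 in none. Passing the filter was itself tied to the mutant libraries for 8 of the 15, which reached 10 in no control. No tested member was called in either direction, where 3.17% of all genes tested were called higher and 1.07% lower. None had an unadjusted p under 0.05 with limma. On the recovered reads edgeR called none, with 3 higher at an unadjusted p under 0.05, beside 1402 of the 11099 genes.

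The estimates were large and their errors as well. *Jon65Aiv* had a log2 fold change of 7.34 with a standard error (SE) of 4.53 and an adjusted p of 0.395. *betaTry* came closest to the threshold among the members, with 7.31 (SE 3.63, unadjusted p = 0.0859, adjusted p = 0.300). For *Jon25Bii* the values were 7.09 (SE 4.04, adjusted p = 0.358), and for *Jon25Bi* 6.89 (SE 4.13, adjusted p = 0.382). *Jon65Aiii*, *epsilonTry*, *alphaTry*, *thetaTry*, *deltaTry* and *Jon65Ai* had estimates between 2.34 and 5.92, with adjusted p-values between 0.382 and 0.485. The other 5 tested genes lay between −1.88 in *Jon66Ci* and 0.32 in *Jon25Biii*. With errors of this size, no tested member passed the threshold.

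DESeq2 on the recovered reads called 4 members higher, where it called 9.8% of all genes tested. These were *Jon65Aiv* (log2 fold change 13.38, adjusted p = 9.19e-05), *Jon65Aiii* (11.55, adjusted p = 0.000489), *Jon25Bi* (13.05, adjusted p = 0.000879) and *deltaTry* (9.38, adjusted p = 0.0334). For *Jon25Bii*, *alphaTry*, *betaTry*, *epsilonTry* and *thetaTry* it gave no p-value, since it set a count aside as an outlier. No tested member had every *de2f1b* library above both controls, a pattern met by 17.4% of all genes tested, so the calls of DESeq2 rest on genes whose groups overlap. Without *de2f1b* replicates 1 and 3, DESeq2 called none of the 7 members that still passed the filter, and none had an unadjusted p under 0.05.

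The median log2 fold change of the 15 tested members was 4.68, beside 0.02 over all genes tested, but 8 of the 15 passed the filter through mutant libraries only, so this median is given as a description. With no filter it was 1.82 over the 26 members with a read, beside 0.24 over all genes with a read. Taken library by library against the mean of the controls, the median over the 15 tested members was 10.69, −0.71, 5.89 and 1.59 in *de2f1b* replicates 1 to 4 (SD 5.03, n = 4). The controls lay at 0.72 and −0.72. Without *de2f1b* replicate 1 the median was 2.32 over 11 members that still passed the filter. Without replicate 2, the mutant library lowest in the proteases, it was 6.86 over 14 members, and none was called. Of these 14, 7 were higher with an unadjusted p under 0.05 (limma), beside 1430 of the 11002 genes tested there. Without both replicates 1 and 3, 7 members passed the filter, their median was −0.59, and 6 of the 7 estimates were below 0. *Jon65Aiii* was among them, with an estimate of −0.03 (limma, adjusted p = 0.993), and *Jon65Aiv* was the exception, at 1.01 (adjusted p = 0.855). The other 8 members of the first fit, among them the *Jon25B* pair and all trypsins, had too few reads in the remaining libraries to be tested.

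**Figure D3:**
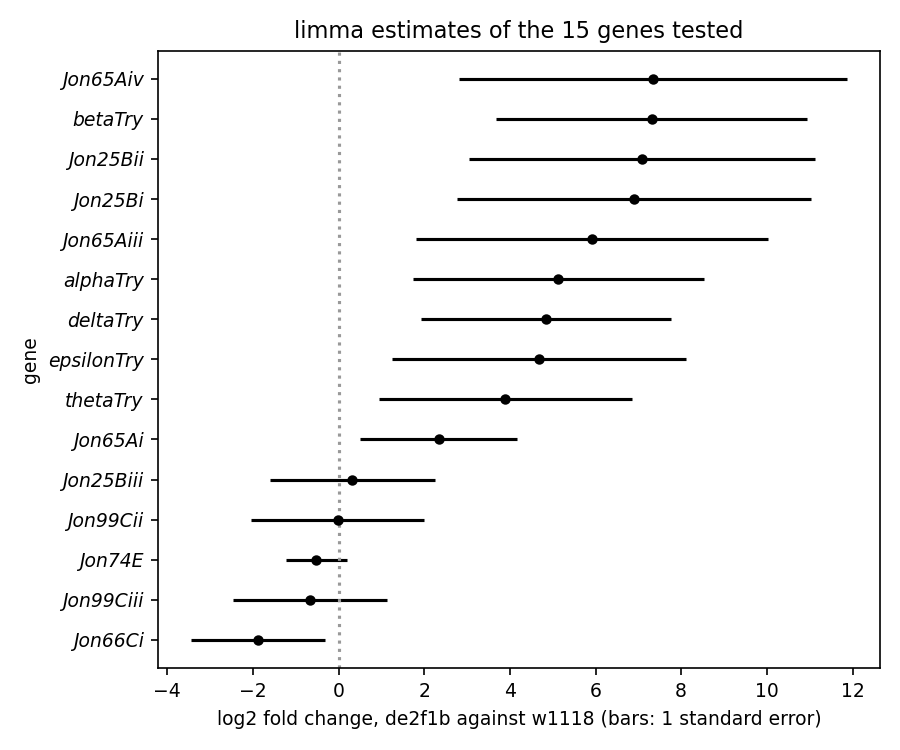
Log2 fold change of *de2f1b* (n = 4) against *w1118* (n = 2) from limma for the 15 members tested, with bars of 1 SE. The estimates run from −1.88 (*Jon66Ci*) to 7.34 (*Jon65Aiv*), with SEs of up to 4.53, and none passed the threshold.

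The order of the members by level per kb of exon was nearly the same in both libraries rich in them. In *de2f1b* replicate 1 the normalized count per kb was 323349 for *Jon65Aiv*, 149162 for *Jon65Aiii*, 54459 for *Jon25Bii*, 44944 for *Jon25Bi*, 25999 for *betaTry*, 21115 for *epsilonTry* and 8577 for *alphaTry*. Each of these was above the next beyond counting error. *thetaTry* and *deltaTry* followed at 2581 and 2414 per kb and could not be told apart, with a ratio of 1.07 (counting interval 0.999 to 1.14). *Jon65Ai* came next at 125 per kb, 19.3-fold below *deltaTry*.

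In *de2f1b* replicate 3 the normalized count per kb was 37843 for *Jon65Aiv* and 20791 for *Jon65Aiii*, again the first and the second. *Jon25Bi* (6895) was there above *Jon25Bii* (3448), a reversal of the order in replicate 1. Among the trypsins, *alphaTry* (470.1 per kb) and *betaTry* (432) could not be told apart, with a ratio of 1.09 (0.956 to 1.24). *epsilonTry* followed at 360 and *deltaTry* at 318, and *thetaTry* lay 13.2-fold below at 24.2 per kb. Intervals here cover counting error in 1 library each, so they say nothing of how replicates of a genotype vary.

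The ratio between both rich libraries was not one number for all members. The normalized count of *de2f1b* replicate 1 was 5.71 times that of replicate 3 for *Jon65Ai* (counting interval 3.58 to 9.46), 6.52 times for *Jon25Bi* (6.35 to 6.70), 7.17 times for *Jon65Aiii* (7.07 to 7.28) and 8.54 times for *Jon65Aiv* (8.45 to 8.64). For *Jon25Bii* it was 15.8 times (15.3 to 16.4). The trypsins reached higher ratios, at 18.2 for *alphaTry*, 58.7 for *epsilonTry*, 60.1 for *betaTry* (55.1 to 65.8) and 107 for *thetaTry* (73.6 to 161). *deltaTry* was the exception among them, at 7.59 (6.68 to 8.64), within the range of the Jonah genes.

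The ratio between replicates 3 and 4 was also unequal. Replicate 3 exceeded replicate 4 by 5.61 times for *epsilonTry*, 9.55 times for *betaTry*, 30.0 times for *deltaTry* (16.5 to 60.7) and 47.0 times for *alphaTry* (26.0 to 94.8). For the Jonah genes the ratio was 73.0 for *Jon25Bii* (55.8 to 97.4), 273 for *Jon25Bi*, 342 for *Jon65Aiv* and 582 for *Jon65Aiii* (427 to 814). Both ratios share replicate 3, so a gene that is low there has a high first and a low second ratio. This held for *epsilonTry* and *betaTry*. *deltaTry* was among the Jonah genes in the first ratio and below them in the second, where its interval overlapped that of *Jon25Bii*. The mix of protease transcripts therefore differed among the 3 mutant libraries beyond counting error, and since each is 1 library, no test across replicates was made.

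**Figure D4:**
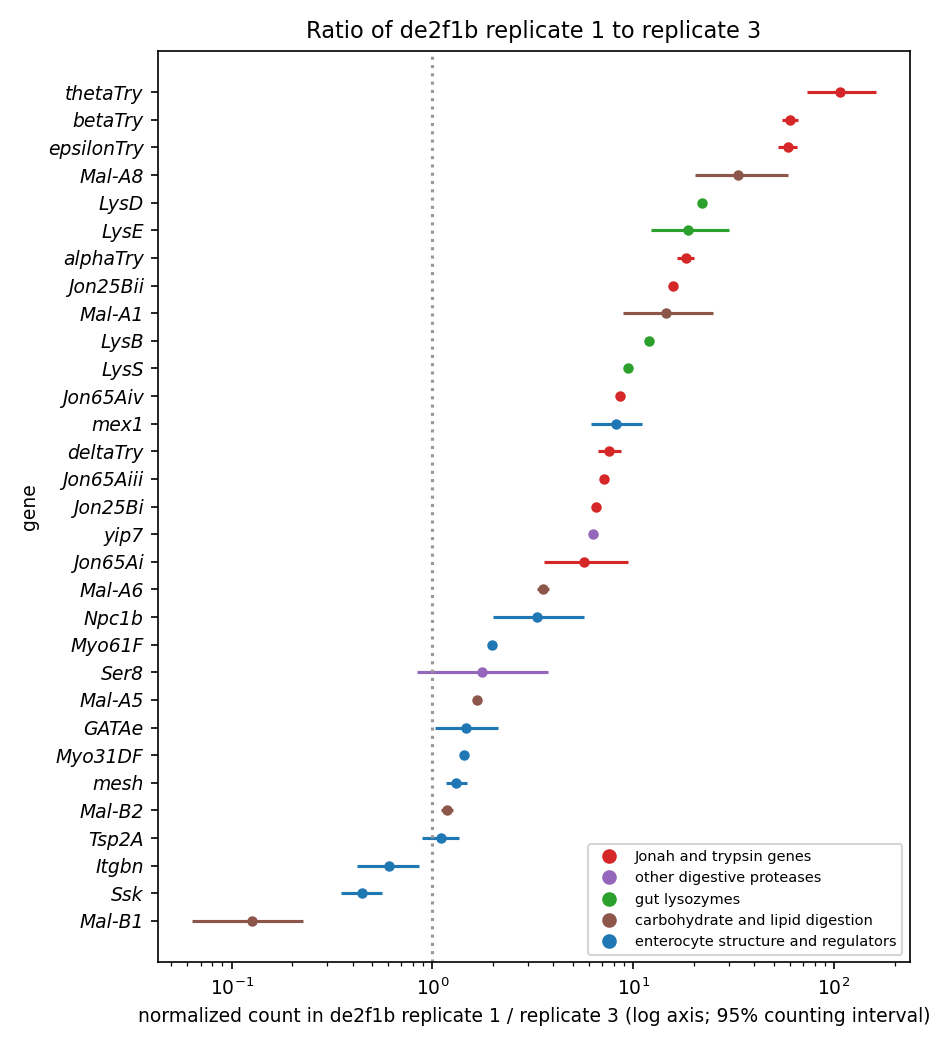
Ratio of the normalized count in *de2f1b* replicate 1 to that in replicate 3 (log axis) for members and midgut genes with at least 10 reads in both, with 95% counting intervals and the gene's list as colour. The members run from 5.71 (*Jon65Ai*) to 107 (*thetaTry*), while *mesh*, *Tsp2A* and *Ssk*, genes of the gut septate junction, lie near or below 1.

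On the chromosomes, the abundant members lay beside members with few reads. The trypsin cluster holds 11 members within 20698 bases of chromosome 2R (11336840 to 11357537), and in *de2f1b* replicate 1 their normalized counts ran from 0 in *zetaTry* to 27845 in *betaTry*. The highest 3 per kb, *betaTry*, *epsilonTry* and *alphaTry*, are neighbours in the middle of the cluster, and the outer genes *lambdaTry* and *iotaTry* had 1.33 and 9.34. Also inside it lie *CG30031* and *CG30025*, which are not members by name. They had no read in either control or in *de2f1b* replicates 2 and 4, and reached 58.7 and 38.7 in replicate 1, with 5.43 and 0.904 in replicate 3.

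The *Jon65A* group holds 4 members within 15289 bases of chromosome 3L (6039155 to 6054443). In *de2f1b* replicate 1 they ran from 10.7 in *Jon65Aii* to 292308 in *Jon65Aiv*. The *Jon25B* group on 2L (4949941 to 4955144) held 2 abundant genes and *Jon25Biii*, which had 36.0 there and 36.7 in *w1118* replicate 1. The *Jon99C* group on 3R (29922216 to 29926189) had no abundant gene, with values from 1.33 to 37.3 in that library, and in the *Jon66C* and *Jon99F* pairs no gene exceeded 2.67 there. The signal was thus held by 3 of the 6 groups with more than 1 member, each with genes that stayed low.

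**Figure D5:**
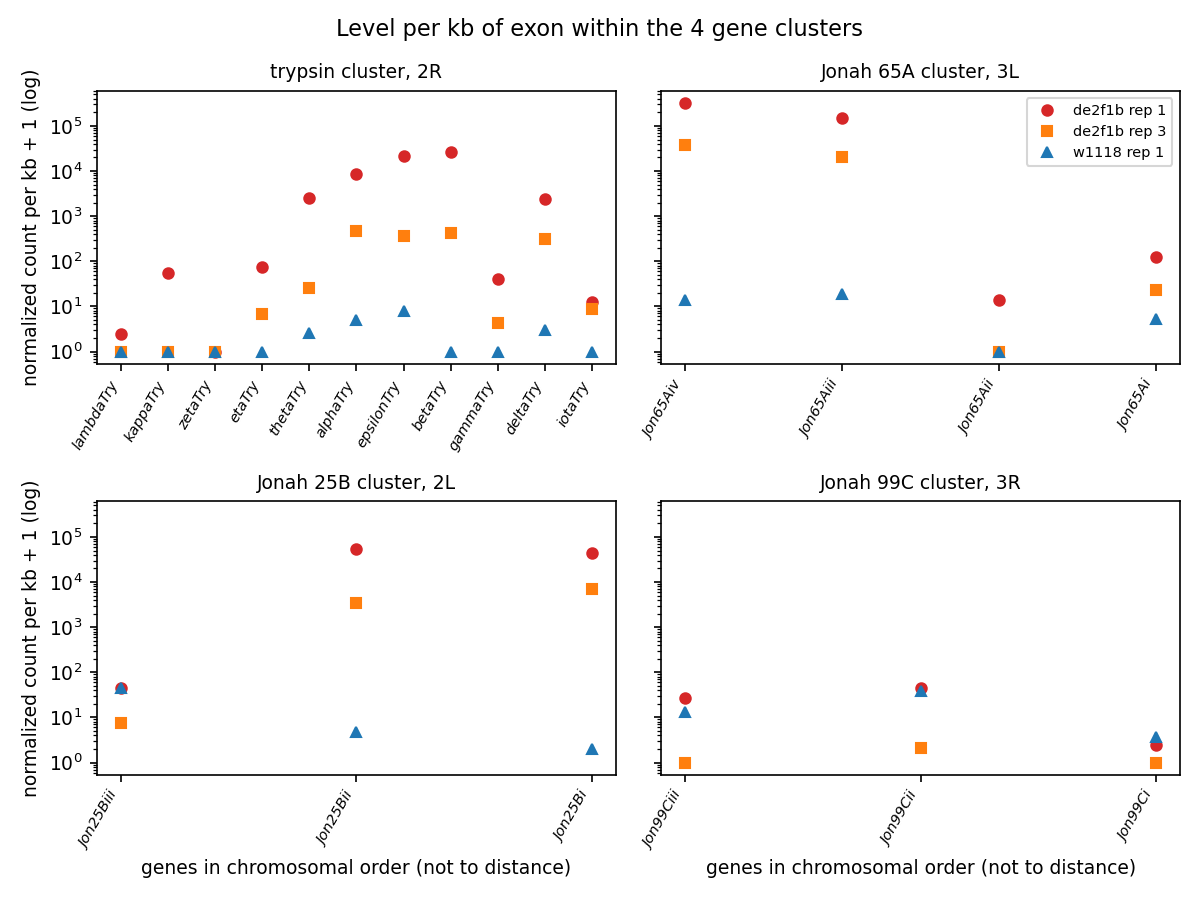
Normalized count per kb of exon plus 1 (log axis) for the members of 4 gene clusters, in chromosomal order, in *de2f1b* replicate 1 (circles), *de2f1b* replicate 3 (squares) and *w1118* replicate 1 (triangles). Genes such as *betaTry* (25999 per kb in *de2f1b* replicate 1) stand next to genes near 0, and in the *Jon99C* group no gene exceeds 43.3 per kb in these libraries.

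Other genes of the midgut were described from 6 lists, with 48 genes in the table. The lists were written from general knowledge, with earlier results of these data known. Of these 48 genes, 33 were tested and 1 was called higher, none lower, and 4 had an unadjusted p under 0.05, all of them higher. Over all genes tested 3.17% were called higher, and 1387 of 11099 were higher with an unadjusted p under 0.05, so the lists were near the background. The gene called was *Ser8*, a serine protease gene, with no read in either control and 24.0, 21.9, 13.6 and 24.2 in *de2f1b* replicates 1 to 4 (limma log2 fold change 4.42, SE 0.71, adjusted p = 0.0257). Unlike the abundant members, *Ser8* was at a similar low level in all 4 mutant libraries, replicate 2 included.

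Several secreted digestive products had the profile of the abundant members, and others of the same lists did not. *yip7*, a serine protease gene related to the Jonah genes, had a normalized count of 0 and 1.83 in *w1118*, and of 126380, 0, 19978 and 93.8 in *de2f1b* replicates 1 to 4 (limma, adjusted p = 0.317). Its ratio between replicates 1 and 3, 6.33, was close to that of *Jon25Bi*. The gut lysozymes digest bacteria, and *LysB* had 6.67 and 1.83 in *w1118* and 54866, 1.37, 4595 and 161 in the mutant. *LysS* and *LysD* reached 47859 and 46803 in replicate 1 and 5063 and 2133 in replicate 3, with 5.48 and 6.85 in replicate 2. The 4 lysozymes in the table summed to between 7.33 and 20.01 in *w1118* and between 13.7 and 149916 in *de2f1b*, and none was called. *mag*, which encodes a secreted lipase of the gut, had 1937 in replicate 1 and only 3.62 in replicate 3, with 24.2 in replicate 4. In *mag*, as in *betaTry* and *epsilonTry*, replicate 3 was low relative to the Jonah genes. The maltases, which split sugars, were mixed, since *Mal-A8* had 483 in replicate 1 and 14.5 in replicate 3, while *Mal-A5* was between 9649 and 16750 in all 6 libraries.

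Several genes for the structure of the midgut epithelium were present in both rich libraries, and the proportion between these differed from gene to gene. *mesh*, a component of the smooth septate junction of the gut, had 2.50 and 0.917 in *w1118*, and 724, 2.74, 551 and 2.35 in *de2f1b* replicates 1 to 4. *Ssk*, of the same junction, was at 0 in both controls and in replicates 2 and 4, and had 127 in replicate 1 and 284 in replicate 3. Both genes were thus high in the same 2 libraries as the proteases, without the large gap between them, with ratios of 1.32 for *mesh* and 0.446 for *Ssk*. *mex1*, a gene of the enterocyte brush border, had 10.01 and 10.08 in *w1118*, and 421, 5.48, 51.5 and 9.38 in the mutant, a ratio of 8.18 between replicates 1 and 3 (6.15 to 11.04), within the range of the Jonah genes. The list of 12 enterocyte genes summed to between 23529 and 43087 in *w1118* and between 15889 and 35629 in *de2f1b*. *Myo31DF* and *Myo61F* accounted for most of that sum and were abundant in every library, so the sum does not follow the proteases. *Tsp2A* and *GATAe* were higher in replicates 1 and 3 than in any other library. *Npc1b* had 69.4 in replicate 1 and 21.9 and 20.8 in replicates 2 and 3. *cad* had 134 in replicate 3 and 1.33 in replicate 1, and *lab* had 63.3 and 5.34. *Itgbn* was between 62.7 and 103 in all 4 mutant libraries, with 25.0 and 19.2 in *w1118*. *Vha100-4* peaked at 6.33.

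Some of these genes were also low where the proteases were, and others were not. In *de2f1b* replicate 2, with 92 protease reads, *yip7*, *mag* and *Ssk* had no read and *mesh* had a normalized count of 2.74. *Tsp2A* had 54.8 there, beside 56.7 and 33.0 in *w1118*, and *Itgbn* had 86.3. *Myo31DF* and *Myo61F* were at 10480 and 24959 in that library. The peptide genes of enteroendocrine cells, hormone-producing cells of the midgut that also share peptides with the nervous system, did not follow the proteases. *Tk* and *NPF* had no read in *de2f1b* replicate 1 and reached 24.4 and 19.9 in replicate 3 and 14.9 and 40.7 in replicate 4. The genes of the peritrophic matrix, the chitin lining of the gut, were mixed. *Peritrophin-A*, the most abundant of them, did not follow the proteases and was highest in *de2f1b* replicate 4. It had 91.7 and 70.6 in *w1118*, and 103, 35.6, 113 and 241 in *de2f1b* replicates 1 to 4. *Peritrophin-15a* reached 33.3 in replicate 1, *Peritrophin-15b* stayed below 10 in every library and *Crys* had no read in any library. The part that midgut RNA has in the levels of the members was not tested.

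Several marker genes of other tissues split the libraries in another way. *phm*, an ecdysone synthesis gene of the ring gland, had 3.34 and 0 in *w1118* and 10.7, 6.85, 4061 and 4865 in *de2f1b* replicates 1 to 4. It was thus high in replicate 3 but not in replicate 1. *dib*, *sad*, *nvd*, *spok* and *GstE14* of the same list were also highest in replicates 3 and 4. *sro*, the last gene of that list, went the other way, with 4132 and 6428 in *w1118* and 7363, 8605, 4780 and 6197 in the mutant. The 7 muscle genes summed to between 20453 and 43077 in *w1118* and between 38296 and 144170 in *de2f1b*, highest in replicate 4. Of the 5 nervous system genes, *elav*, *nSyb*, *brp* and *para* were highest in replicates 3 and 4. *elav* had 940 and 948 there and at most 218 in any other library, and *nSyb* had 734 and 337 and at most 52.5. *Syt1*, the last of that list, was between 3404 and 5887 in every library. *ZnT35C*, a zinc transporter gene listed for the Malpighian tubule, had 611 in replicate 3 and at most 2.67 elsewhere, but of the other genes of that list *Uro* and *CapaR* had no read in replicate 3 and *Irk3* had 36.2. The 6 fat body genes and the 5 hemocyte genes were detected in all libraries, with sums of 2936470 to 5781040 and of 1513 to 2942. The part of these tissues in the levels of the members was not tested.

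Genes outside all lists were searched for those absent or nearly so from the controls and abundant where the members were, by a rule on level and with no measure of likeness. At most 3 reads in each control were found in 3888 of these protein-coding genes. The 10 with the highest normalized count in *de2f1b* replicate 1 reached between 5502 and 25796 there. *CG31789* (2L, 18605928 to 18606684) had 25796, 0, 2273 and 11.7 in *de2f1b* replicates 1 to 4, and *CG7953* (2L, 13847925 to 13849223) had 24261, 1.37, 3407 and 7.04. *CG6839*, *CG8664*, *CG12115*, *CG14302* and *CG6933* also had replicate 1 above replicate 3 and replicate 3 above replicate 4, with at most 1.37 in replicate 2. *CG9672* had no read in replicates 2 and 4, at 6065 in replicate 1 and 572 in replicate 3. *Muc55B*, a mucin gene, was at 8529 in replicate 1 and had no read in the other mutant libraries. *CG43182* was the exception, with 7736, 5303, 4334 and 13324, high in all 4 mutant libraries.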

How the data were processed

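Total RNA of SGs was purified on columns and treated with DNase, and how the libraries enriched mRNA is not given in the sources used here. The authors checked paired-end reads with FastQC v0.11.8, left them untrimmed, aligned them with STAR v2.7.6a and counted them with FeatureCounts v1.6.0. They ran DESeq2 (version not given) for the genotype comparison. The submitters' processing notes name the build BDGP6. The deposited values are a signal, the read count of a gene divided by 1 size factor per library. Divided by the smallest value of their library, 100% came out whole within a tolerance of 0.01, and these whole reads were used for shares, ratios and count tests. The authors also deposited their comparison (a mean over libraries, log2 fold changes with standard errors, a Wald score and p-values), which was not used. Neither the handling of reads that fit several gene copies nor the strand setting of the counting is given in the sources used here. Total reads on genes ranged from 56495956 to 94907006 per library.

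Every library was mapped to its genotype by its label, and control replicates 2 and 3 were not analysed here. The members and gene lists were chosen with earlier results of these data known. Gene positions, exon lengths and clusters (members less than 50000 bases apart) were taken from the BDGP6.54 annotation (Ensembl 115), and gene names were matched through it and through RefSeq synonyms. *LysC* was matched to no protein-coding entry.

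The test was limma 3.58.1 (R 4.3.3) on log2(normalized count + 1), two-sided, fitted with a mean-variance trend and a single term, the genotype, over genes that reached 10 in 2 or more libraries. P-values were adjusted by Benjamini-Hochberg. The fold changes on this scale understate the change of low genes. The procedure was tested on simulated reads. Alternatives were pseudocounts of 0.5 and 10, no filter, a mean of at least 100, rescaling to the same total, by TMM and by quantiles, limma with no trend, limma with robust eBayes, a block for the replicate number, edgeR 4.0.16 and DESeq2 1.42.0 on recovered reads, and each library left out. Leaving out *de2f1b* replicates 1 and 3 together, with limma and with DESeq2, was added after the data were seen. Shares carry 95% Wilson intervals, and ratios of reads carry exact binomial intervals, which cover counting error only. Folds over the pooled controls divide normalized levels, with 3 reads in the control library where a read was worth more as the floor where no read was seen. Values in each library were named for members that reached 100 in any library and for 4 others as examples, and the 10 genes outside the lists by their level in the library where the members summed highest. Python 3.11.15 with SciPy 1.17.1, pandas 2.3.3 and NumPy 2.4.6 served for all else, and Matplotlib 3.10.9 for the plots. No sequences of the members were used.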

Additional observations from a re-analysis of the deposited data

Results flagged for a closer look

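The summed normalized count of the 27 protease genes in *de2f1b* replicate 1, 568241, lay far from the other 3 mutant libraries, with a gap to the nearest of 0.889 of the whole range, above the critical value for 4 libraries. The same library stood apart in the sum of the Jonah genes, at 510677 (0.880 of the range), and in the sum of the trypsin genes, at 57564 (0.975 of the range). These sums share their reads, so they are not independent. The total of reads on genes was flagged in another mutant library, replicate 4, at 86202639 (0.931 of the range). In all 19 values were examined, of which chance would flag about 0.95. The sums and the total were examined on the linear scale, where the largest value sets most of the range. The 15 tested members were examined one by one as log2 normalized counts, and none of them was flagged. The sums were not examined on the log2 scale, so the flag of replicate 1 holds for the linear scale only.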

How the results depend on the processing

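The number of members called was 0 in both directions under every alternative except DESeq2 on all libraries, which called 4 higher. The cause of that difference was not tested. The median log2 fold change of the tested members ranged from 2.32 to 6.86 with each library left out, and the member counts ranged from 0 to 0. It fell to −0.59 without both *de2f1b* replicates 1 and 3, where *Jon65Aiii* reversed to −0.027, and to −0.11 with DESeq2 on the same libraries, which called 0. With no filter it was 1.82 over 26 members, and with DESeq2 9.67. With each library left out, the estimate of *Jon65Aiv* ranged from 4.71 to 10.35. The replicate number as a block called no member (median 6.39, 9 members higher at an unadjusted p under 0.05, beside 775 of 11099 genes). This block fit called 5 genes higher and 2 lower over all genes. Only numbers 1 and 4 hold both genotypes, so *de2f1b* replicates 2 and 3 add nothing to its genotype estimates. It therefore leaves out replicate 2, the mutant library lowest in the proteases, and is not an alternative on all libraries. The deviations of the same-numbered libraries correlated at −0.32 for number 1 and −0.36 for number 4. With 2 controls, the deviations of one mirror those of the other, so these values cannot decide whether the number pairs the libraries. Over all genes, the calls were 352 higher and 119 lower with limma, 1088 and 556 with DESeq2, 198 and 89 with edgeR, 182 and 95 after quantile normalization, and 208 and 71 without the filter. Levels under the value of 3 reads, such as the trypsin sum of *de2f1b* replicate 2, are limited by depth.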
